A study of Arabidopsis thaliana with 30 samples.

Results

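The 43 genes described here are the nuclear genes for the light-harvesting antennas and for subunits of photosystems I and II, chosen by their gene identifiers from the 25300 genes of the table. They comprised 14 LHCB genes (the antenna of photosystem II), 6 LHCA genes (the antenna of photosystem I), 12 photosystem I subunit genes (PSAD to PSAO) and 11 photosystem II subunit genes (PSBO to PSBY and PSBTN). Whole 4-d-old Arabidopsis thaliana seedlings of 5 genotypes, all in the Col-0 background, were compared after growth in continuous red light of 50 µmol m-2 s-1 on medium without sucrose. Every seedling spent its first 2 d at 21 °C, and for the last 2 d it was either moved to 27 °C or left at 21 °C until collection at 96 h. Before growth, all seeds had a cold treatment of 5 d at 4 °C without light, and the age and the 96 h count from its end. Each of the 10 groups had 3 libraries of poly(A) RNA.

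The lines were MIM156, dcl1-24/hyl1-2, pif457 and hyl1-2, and the wild type was Col-0. MIM156 (35S:mim156 in the labels) carries, under the 35S promoter, a target mimic that binds the microRNA miR156. The line pif457 carries mutations in the genes of the transcription factors PIF4, PIF5 and PIF7, which drive growth in the warm. The mutant hyl1-2 lacks HYL1, a partner of the enzyme DCL1 in making microRNAs. The line dcl1-24/hyl1-2 still carries hyl1-2 and adds 1 suppressor allele of DCL1 from a mutagenised population, so it is 1 isolate. The question put to the members was how their transcript levels moved with warmth in each genotype, and whether those responses differed from that of Col-0.

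In the thylakoid membrane, light is absorbed by chlorophyll bound to antenna proteins and passed to the reaction centres of the photosystems. Photosystem II takes electrons from water and photosystem I passes them to ferredoxin. The reaction centre cores are encoded in the chloroplast, whereas all antenna proteins and many small subunits are encoded in the nucleus and imported. Their nuclear genes are induced by light in young seedlings, under regulators such as the GLK factors, HY5 and the PIF repressors.

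The libraries held 18.4 M to 27.1 M counted reads, and a transcript with no read in a library could have had up to 0.111 to 0.163 CPM (counts scaled to a common library total), a limit set by 3 reads that covers counting error only. Levels are given as normalised CPM, the deposited CPM divided by a median-of-ratios factor per library. All 43 members passed the filter on low values. A sum over 16 root genes, with the very abundant PYK10 left out, spanned 34.4 to 510 normalised CPM over the libraries, and a sum over 12 seed genes spanned 1.52 to 182. Replicate 3 of Col-0 at 21 °C had a root gene sum of 424, against 59.4 and 104 in the other two libraries, and replicate 3 of dcl1-24/hyl1-2 at 21 °C had 410, against 48.4 and 150. Those libraries and replicate 3 of MIM156 at 21 °C had stood apart in earlier results of these data, and results without the 3 of them are given where they change a count by over 1.5 times. PIF5 had 11.2 to 12.1 normalised CPM in pif457 at 27 °C, against 93.6 to 97.8 in Col-0 at 27 °C, and PIF7 had 0.785 to 1.98, against 9.73 to 13.1. PIF4 had 53.4 to 56.4 normalised CPM in pif457 at 27 °C, against 77.2 to 102.9 in Col-0 at 27 °C, a difference that did not pass the test (-0.62 ± 0.24, adjusted p = 0.0834), and within pif457 it rose with warmth by 1.97 ± 0.24 (adjusted p = 2.43e-06). Reads of the IPS1 gene, from which the mimic was built, made up 3.29 to 5.73% of all reads in MIM156 libraries. HYL1 had 12.3 to 18.7 normalised CPM in hyl1-2 at 27 °C, against 6.02 to 7.87 in Col-0 at 27 °C. A sum over a whole gene does not tell intact from interrupted transcripts, so HYL1 does not check the hyl1-2 label and PIF4 does not check its own locus in pif457.

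The members took between 6.89 and 19.5% of all counted reads of a library, and 22 of them were among the 50 nuclear genes with the highest mean level. Their share was 6.89 to 8.51% in MIM156 at 27 °C, against 12.1 to 16.3% in MIM156 at 21 °C. In dcl1-24/hyl1-2 it was 10.02 to 14.01% at 27 °C, against 15.6 to 16.8% at 21 °C. It was thus lower at 27 °C without overlap in these lines, and the other mutants went the other way. In pif457 the share was 18.8 to 19.5% at 27 °C, against 10.7 to 14.5% at 21 °C. In hyl1-2 it was 15.95 to 19.1% at 27 °C, against 11.4 to 13.8% at 21 °C. Col-0 had 12.1 to 15.9% at 27 °C, against 11.1 to 15.7% at 21 °C, and its groups overlapped. In RNA of whole seedlings, fewer cells of a type and less RNA per cell cannot be told apart. Chloroplast transcripts, which oligo-dT selection mostly leaves out, made up 0.161 to 13.1% of reads and were lower at 27 °C in every line. Of nuclear reads alone, the members took 6.98 to 8.64% in MIM156 at 27 °C, against 13.1 to 16.8% at 21 °C. In dcl1-24/hyl1-2 that share was 10.1 to 14.1% against 15.9 to 17.2%, and in pif457 18.9 to 19.5% against 10.8 to 14.6%. In hyl1-2 it was 16.3 to 20.0% against 12.4 to 14.6%, and Col-0 overlapped (12.4 to 16.3% and 11.4 to 16.6%). Any part of chloroplast transcripts beyond the denominator was not tested.

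**Figure D1:**
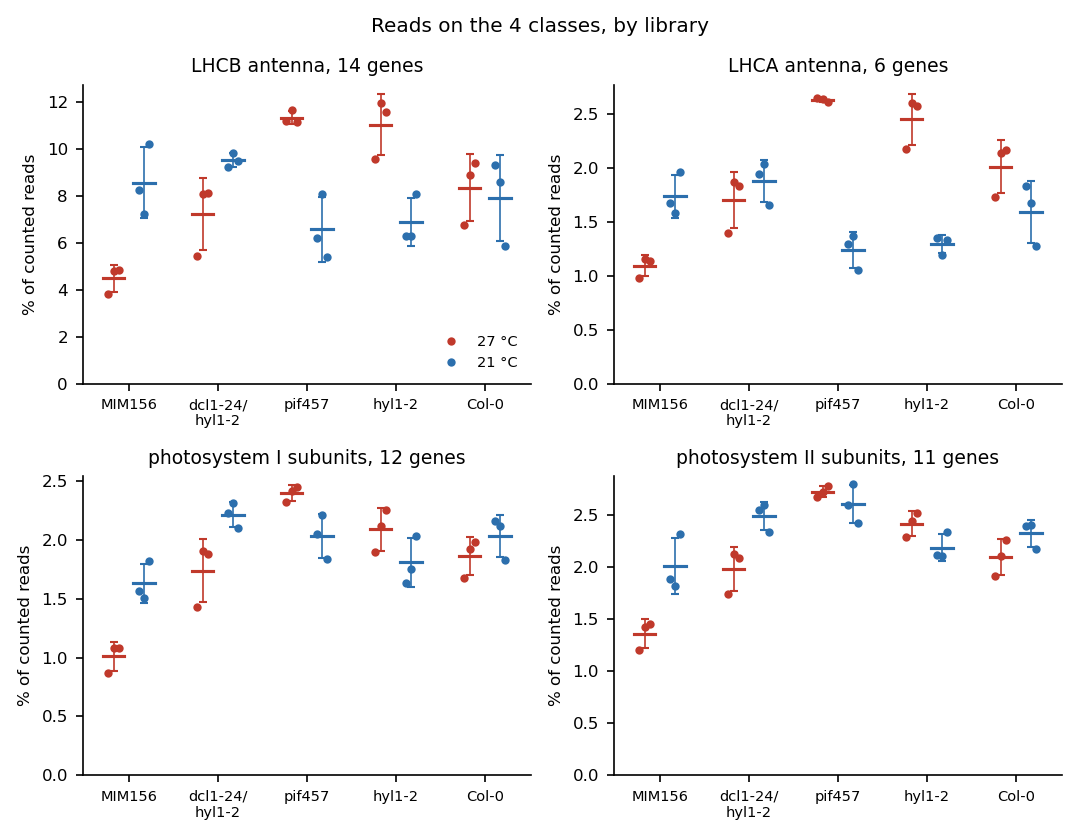
Share of all counted reads (%, y axes) on the 14 LHCB, 6 LHCA, 12 photosystem I and 11 photosystem II genes in each library, at 27 °C (red) and 21 °C (blue) in the 5 genotypes, with bars at the mean and SD of 3 libraries. The LHCB genes take 3.84 to 4.84% of reads in MIM156 at 27 °C, less than in any other library, and 11.2 to 11.7% in pif457 at 27 °C.

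Per kilobase of exon, the levels of the members in Col-0 at 21 °C differed widely. LHCB1.3 (AT1G29930), a gene of the most abundant antenna protein, had 24026 ± 7243 normalised CPM per kb (SD, n = 3), followed by LHCB1.5 (AT2G34420) with 10619 ± 3841. The next in order, LHCB1.4 (AT2G34430) with 6535 ± 2659, PSBR with 4915 ± 735 and LHCB5 with 4838 ± 783, lay within their spread of each other. The lowest 3 were LHCA5 (AT1G45474) with 158 ± 20.6, LHCA6 (AT1G19150) with 149 ± 13.5 and LHCB4.3 (AT2G40100) with 32.8 ± 7.08 normalised CPM per kb. LHCA5 and LHCA6 did not differ beyond their spread, and LHCB4.3 lay far under both. LHCA5 and LHCA6 link photosystem I to the chloroplast NDH complex, and LHCB4.3 is the rare form of the minor antenna protein CP29.

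The promoters of 4 antenna genes are shown, chosen after the responses were known for the contrast between them. LHCB2.2, LHCB2.1 and LHCA4 rose with warmth in pif457 and hyl1-2 and fell in MIM156, whereas LHCB4.3 fell in all 5 genotypes. Each sequence is the 250 bases before the annotated start of the gene, from RefSeq on the TAIR10.1 build, read 5′ to 3′ on the strand of the gene. LHCB2.2 is chr2:1800473-1800722 on the minus strand, and LHCB2.1 is chr2:1824481-1824730 on the minus strand. LHCA4 is chr3:17495034-17495283 on the minus strand, and LHCB4.3 is chr2:16745378-16745627 on the plus strand. Capitals mark matches, on either strand, to 5 motifs known from light-regulated plant promoters: the I-box (GATAAG), the G-box (CACGTG), the PIF box (CACATG), letters from the site bound by CCA1 (AAAATCT) and the GLK site (CCAATC).
LHCB2.2: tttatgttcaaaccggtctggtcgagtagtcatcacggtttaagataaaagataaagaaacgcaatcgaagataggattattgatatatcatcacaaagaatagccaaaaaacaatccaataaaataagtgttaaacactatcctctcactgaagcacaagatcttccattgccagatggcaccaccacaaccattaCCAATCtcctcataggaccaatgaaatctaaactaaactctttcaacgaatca
LHCB2.1: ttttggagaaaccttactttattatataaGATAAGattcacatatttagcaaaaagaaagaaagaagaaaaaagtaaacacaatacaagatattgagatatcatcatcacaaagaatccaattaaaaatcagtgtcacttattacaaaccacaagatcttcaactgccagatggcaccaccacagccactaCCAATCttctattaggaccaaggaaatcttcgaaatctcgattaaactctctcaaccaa
LHCA4: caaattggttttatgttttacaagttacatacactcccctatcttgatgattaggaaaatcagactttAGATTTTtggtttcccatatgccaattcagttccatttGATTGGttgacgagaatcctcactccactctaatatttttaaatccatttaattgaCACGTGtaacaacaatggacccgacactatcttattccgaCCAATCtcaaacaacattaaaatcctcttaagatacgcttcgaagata
LHCB4.3: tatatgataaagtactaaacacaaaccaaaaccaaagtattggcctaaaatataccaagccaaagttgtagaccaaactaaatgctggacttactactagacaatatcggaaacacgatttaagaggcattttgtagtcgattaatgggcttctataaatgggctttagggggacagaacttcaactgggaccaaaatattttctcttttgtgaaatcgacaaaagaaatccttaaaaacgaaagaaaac

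The GLK letters stood 53 bases before the start in LHCB2.2 and 59 bases before it in LHCB2.1. These promoters were identical at 175 of 220 aligned bases (79.5%), with gaps left out. By the same measure LHCB2.2 shared 70.0% with LHCB2.3 and 61.6% with LHCB4.3. In LHCA4 the GLK letters stood at 48 bases as given and at 144 bases on the other strand, and LHCB4.3 held none of the 5 motifs in this window. Over all members, the GLK letters were in 11 of 43 promoters, against 10.2% of the 27443 promoters in the RefSeq table, all of the same length. They were in 7 of 14 LHCB, 3 of 6 LHCA, 0 of 12 photosystem I and 1 of 11 photosystem II promoters. The G-box letters were in 9 of 43 members, against 6.49% of all promoters, and the I-box letters in 9, against 12.3%. The CCA1 letters were in 12 members, against 16.5% of all promoters, and the PIF box letters in 5, against 11.1%. None of the 5 motifs contains another, and a match describes the sequence and does not show a bound site.

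Several members are close copies of each other, which bears on how reads were assigned. LHCB1.1, LHCB1.2 and LHCB1.3 lie beside each other on chromosome 1 (10472280 to 10479114) and shared 95.6 to 96.4% of their coding bases. LHCB2.1 and LHCB2.2 shared 92.9%, and these were the only members with a stretch of 150 bases also found in another member, 0.239% and 0.302% of their windows. Counting used uniquely mapped reads, so reads from identical stretches were left out. For 17 members the annotated gene overlaps another gene, LHCB1.3, LHCA4, LHCA5 and PSAN among them, and whether reads were counted by strand is not stated in these sources.

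The members did not respond to warmth as a block across the genotypes. All 43 were called lower at 27 °C in MIM156, where 9.75% of all genes were. All had a negative change in dcl1-24/hyl1-2, with 29 of them called, where 7.9% of all genes were called lower. In Col-0 17 members fell and none rose, where 9.68% of all genes were called lower and 8.54% higher. The difference in response between dcl1-24/hyl1-2 and Col-0 was called for 0 members and 0 of all genes. Antenna genes were 11 of the 13 members that rose in pif457 and 10 of the 11 that rose in hyl1-2. Other members fell in both lines. Over all genes 8.27% were called higher and 9.13% lower in pif457, and 14.3% higher and 17.1% lower in hyl1-2. The rare LHCB4.3 and LHCA5 fell in every genotype. Changes are given as log2 differences, 27 °C minus 21 °C, with the standard error from 1 limma fit of all 30 libraries, and a call means an adjusted p (Benjamini-Hochberg, over 21780 genes) under 0.05.

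**Figure D2:**
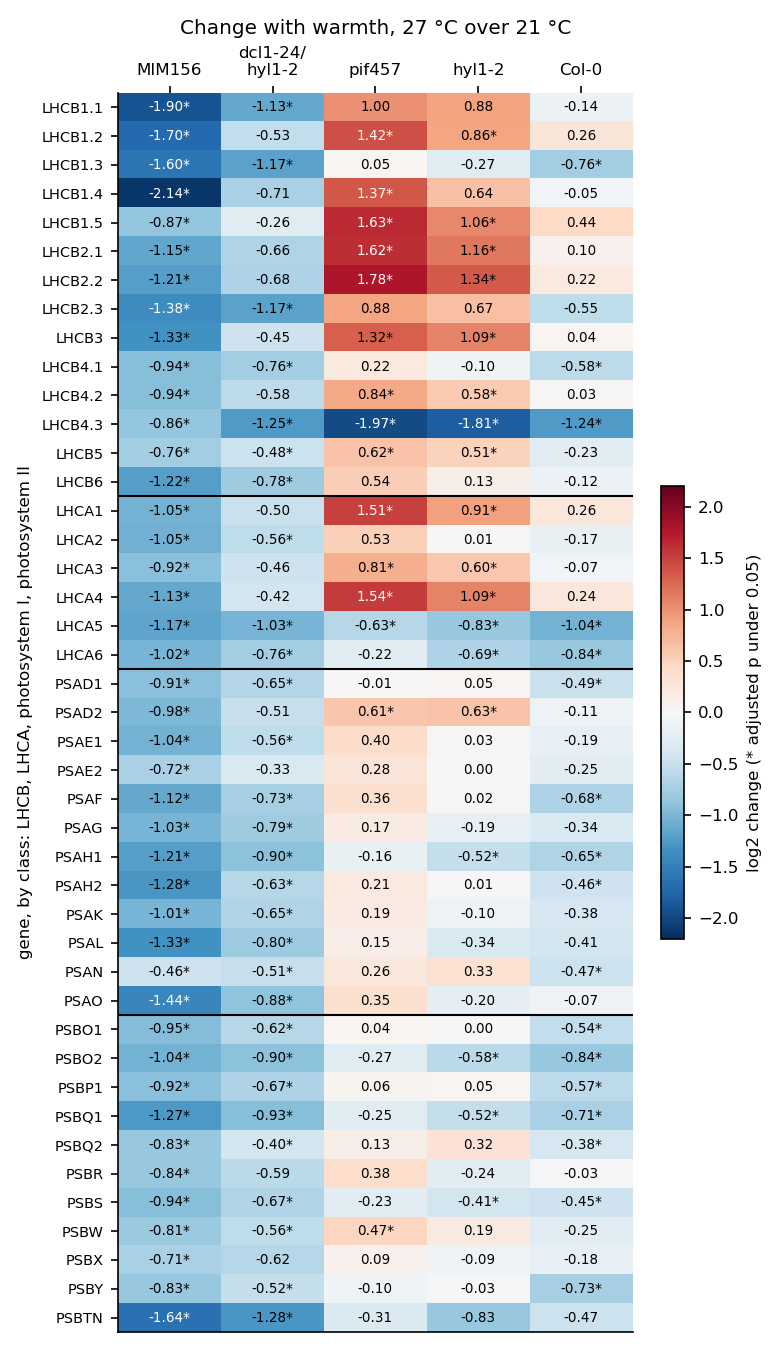
Log2 change with warmth (27 °C minus 21 °C, normalised CPM) for each of the 43 members in the 5 genotypes, ordered by role, with a star where the change was called. All 43 cells are starred and negative in MIM156, and LHCB2.2 has 1.78 in pif457 and -1.21 in MIM156.

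In MIM156, all 43 members fell at 27 °C, where 9.75% of all genes tested were called lower and 8.57% higher. Their median change was -1.04, against 0.01 over all genes, with a range of -2.14 to -0.46. The largest fall was in LHCB1.4, a gene of the major trimeric antenna of photosystem II. It had 881, 1825 and 1698 normalised CPM at 27 °C, against 6021, 4827 and 8109 at 21 °C. All the warm libraries were lower, replicate 1 lowest of all, and the change was -2.14 ± 0.40 (SE, adjusted p = 0.00052).

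Its relative LHCB1.1 (AT1G29920) had 1309, 2156 and 2116 normalised CPM in MIM156 at 27 °C, against 6158, 5330 and 9405 at 21 °C, a change of -1.90 ± 0.35 (adjusted p = 0.000471). LHCB5, the minor antenna protein CP26, had the smallest change among the LHCB genes, -0.76 ± 0.15 (adjusted p = 0.000725). Its warm libraries were close together at 4391, 4345 and 4259, against 6405, 6745 and 9111 at 21 °C. Among the LHCA genes LHCA5 fell most (-1.17 ± 0.15, adjusted p = 3.51e-06), LHCA4 followed (-1.13 ± 0.21, adjusted p = 0.000313), and LHCA3 fell least (-0.92 ± 0.17, adjusted p = 0.000291). The 3 LHCB2 genes fell together, LHCB2.1 by 1.15, LHCB2.2 by 1.21 and LHCB2.3 by 1.38 on the log2 scale (adjusted p = 0.00125, 0.00233 and 0.0157).

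Of the photosystem I subunits in MIM156, PSAO, which helps to dock the mobile antenna, fell by 1.44 ± 0.28 (adjusted p = 0.000627). It had 385, 723 and 701 normalised CPM at 27 °C, against 1637, 1170 and 2021 at 21 °C, with no overlap. PSAL, at the same docking side, fell by 1.33 ± 0.23 (adjusted p = 0.000163). The smallest change of all 43 was that of PSAN, a lumenal subunit, at -0.46 ± 0.13 (adjusted p = 0.0155). Of the photosystem II subunits, PSBTN changed by -1.64 ± 0.39 (adjusted p = 0.00537) and PSBQ1, of the oxygen-evolving complex, by -1.27 ± 0.17 (adjusted p = 4.68e-06), while PSBX changed least (-0.71 ± 0.23, adjusted p = 0.0295).

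The call in MIM156 held for 36 to 43 members when any 1 library was left out and for 36 without the 3 libraries that stood apart. PSAN, PSBX and PSBTN were among the calls lost without replicate 3 at 21 °C, at adjusted p = 0.0942, 0.169 and 0.0504. Scaling to the deposited totals, under which the median change of all genes was 0.36, left 39 members called lower and none higher. Seed gene sums were 12.4 to 182 normalised CPM in MIM156 at 27 °C, against 11.4 to 22.9 at 21 °C, and root gene sums without PYK10 were 87.3 to 108, against 162 to 268. Their part in the fall of the members was not tested.

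In dcl1-24/hyl1-2, 29 of 43 members fell and none rose, where 7.9% of all genes were called lower and 6.49% higher. The median change was -0.65, against 0.02 over all genes, and it was negative for all 43. The called members were 7 of 14 LHCB, 3 of 6 LHCA, 10 of 12 photosystem I and 9 of 11 photosystem II genes. LHCB2.3 (AT3G27690), the lowest expressed LHCB2 gene, had 388, 986 and 1030 normalised CPM at 27 °C, against 1421, 2100 and 1519 at 21 °C. Replicate 1 at 27 °C was the lowest by far, and the change was -1.17 ± 0.39 (adjusted p = 0.045). Without that library the adjusted p was 0.278.

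PSAH1, which with its twin gene PSAH2 encodes a subunit needed for antenna docking, changed by -0.90 ± 0.16 in dcl1-24/hyl1-2 (adjusted p = 0.000201). It had 448, 541 and 544 normalised CPM at 27 °C, against 851, 1116 and 897 at 21 °C. PSAO changed by -0.88 ± 0.28 (adjusted p = 0.0324), and PSAE2 had the smallest change of its class at -0.33 ± 0.14 (adjusted p = 0.117, not called). Among photosystem II genes PSBTN changed by -1.28 ± 0.39 (adjusted p = 0.0312), PSBQ1 by -0.93 ± 0.17 (adjusted p = 0.000262) and PSBQ2 by -0.40 ± 0.13 (adjusted p = 0.0336). The antenna genes with the smallest changes were LHCB1.5 (-0.26 ± 0.27, adjusted p = 0.584) and LHCA4 (-0.42 ± 0.21, adjusted p = 0.197).

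The number of members called in dcl1-24/hyl1-2 depended on single libraries. It was 12 without replicate 1 at 27 °C, 15 without replicate 2 at 21 °C and 19 without replicate 1 at 21 °C. It was 17, all lower, with deposited totals, under which the median over all genes was 0.32, and 15 with these groups alone in the fit.

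In pif457, 13 members rose and 2 fell, where 8.27% of all genes were called higher and 9.13% lower. The rise was in the antenna: 8 of 14 LHCB and 3 of 6 LHCA genes, against 1 of 12 photosystem I and 1 of 11 photosystem II genes. The median change was 0.94 over LHCB, 0.67 over LHCA, 0.23 over photosystem I and 0.04 over photosystem II genes, against 0.00 over all genes tested. LHCB2.2 (AT2G05070), of the mobile trimeric antenna, had 3377, 3750 and 3482 normalised CPM at 27 °C, against 1221, 1180 and 749 at 21 °C. The warm libraries were all far above the cool ones, and the change was 1.78 ± 0.27 (adjusted p = 3.58e-05).

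LHCB1.5 had 18788, 20031 and 19303 normalised CPM in pif457 at 27 °C, against 5886, 8866 and 4655 at 21 °C, and rose by 1.63 ± 0.27 (adjusted p = 7.89e-05). LHCB2.1 (AT2G05100) rose by 1.62 ± 0.24 (adjusted p = 2.32e-05). LHCB1.3, the highest member, had 27442, 25699 and 26104 at 27 °C, against 22536, 36528 and 20159 at 21 °C. Its warm libraries lay within the spread of the cool ones (0.05 ± 0.25, adjusted p = 0.924). LHCA4 (AT3G47470), which holds far-red chlorophylls of photosystem I, had 9366, 8737 and 9214 normalised CPM at 27 °C, against 3534, 3631 and 2392 at 21 °C. It rose by 1.54 ± 0.21 (adjusted p = 5.27e-06), and LHCA1 rose by 1.51 ± 0.24 (adjusted p = 4.28e-05).

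The members of pif457 that fell were LHCB4.3 and LHCA5. Outside the antenna the called members were PSAD2, of the ferredoxin docking site (0.61 ± 0.20, adjusted p = 0.0351), and PSBW (0.47 ± 0.16, adjusted p = 0.0462). Both calls were lost in 5 of 6 fits that left out 1 library. The smallest changes were those of PSAD1 (-0.01 ± 0.16, adjusted p = 0.988), PSBO1 (0.04 ± 0.14, adjusted p = 0.896) and LHCA6 (-0.22 ± 0.19, adjusted p = 0.454). Seed gene sums were 28.5 to 64.6 normalised CPM in pif457 at 27 °C, against 1.63 to 11.2 at 21 °C, and their part was not tested.

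In hyl1-2, 11 members rose and 7 fell, where 14.3% of all genes were called higher and 17.1% lower. As in pif457 the rises were in the antenna, with 7 of 14 LHCB and 3 of 6 LHCA genes, against 1 of 12 photosystem I and 0 of 11 photosystem II genes. LHCB2.2 had 2873, 4047 and 3912 normalised CPM at 27 °C, against 1712, 1182 and 1371 at 21 °C. It rose by 1.34 ± 0.27 (adjusted p = 0.000582), without overlap, and LHCB2.1 rose by 1.16 ± 0.24 (adjusted p = 0.000737). LHCA4 rose by 1.09 ± 0.21 (adjusted p = 0.000306), LHCA1 by 0.91 ± 0.24 (adjusted p = 0.00482) and PSAD2 by 0.63 ± 0.20 (adjusted p = 0.0184).

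The falls in hyl1-2 were LHCB4.3, LHCA5, LHCA6, PSAH1 and 3 photosystem II genes. The share of members that fell was near the 17.1% of all genes called lower, so their count does not set the members apart. PSAH1 had 661, 761 and 779 normalised CPM at 27 °C, against 928, 1080 and 1146 at 21 °C, and fell by 0.52 ± 0.16 (adjusted p = 0.0148). PSBO2 changed by -0.58 ± 0.17 (adjusted p = 0.00858) and PSBQ1 by -0.52 ± 0.17 (adjusted p = 0.0205), both of the oxygen-evolving complex. Next to no change was measured for LHCB4.1 (-0.10 ± 0.17, adjusted p = 0.693), LHCA2 (0.01 ± 0.19, adjusted p = 0.977), PSAE2 (-0.00 ± 0.14, adjusted p = 0.989) and PSBO1 (-0.00 ± 0.14, adjusted p = 0.996). With deposited totals, under which the median over all genes was 0.28, 23 members were called higher and 3 lower. Of 16 root genes, 12 were called lower at 27 °C in hyl1-2, and their sum without PYK10 was 44.6 to 125 normalised CPM at 27 °C, against 421 to 510 at 21 °C. Their part in the rise of the antenna genes was not tested.

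In Col-0, 17 members fell and none rose, where 9.68% of all genes were called lower and 8.54% higher. The median change was -0.34, against 0.02 over all genes. Subunit genes carried most of it, with 5 of 12 photosystem I and 7 of 11 photosystem II genes called lower, against 3 of 14 LHCB and 2 of 6 LHCA genes. PSBO2 (AT3G50820) had 811, 997 and 1138 normalised CPM at 27 °C, against 1813, 1847 and 1565 at 21 °C, and fell by 0.84 ± 0.17 (adjusted p = 0.000478). PSBY changed by -0.73 ± 0.17 (adjusted p = 0.00226), and PSAH1 by -0.65 ± 0.16 (adjusted p = 0.00386). PSAF, which binds plastocyanin, had 2286, 2560 and 2856 normalised CPM at 27 °C, against 4188, 4953 and 3341 at 21 °C, a change of -0.68 ± 0.19 (adjusted p = 0.00946). The groups of these 4 genes did not overlap.

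LHCB1.3 in Col-0 had 13391, 17637 and 20207 normalised CPM at 27 °C, against 35296, 34071 and 19288 at 21 °C. Replicate 3 at 21 °C fell among the warm libraries, and the change was -0.76 ± 0.25 (adjusted p = 0.0352). The smallest changes were LHCB4.2 (0.03 ± 0.22, adjusted p = 0.948), LHCA3 (-0.07 ± 0.17, adjusted p = 0.836), PSAO (-0.07 ± 0.28, adjusted p = 0.894) and PSBR (-0.03 ± 0.23, adjusted p = 0.956). The number called was 8 without replicate 1 at 27 °C, 9 without replicate 2 at 21 °C and 11 without replicate 1 at 21 °C. Deposited totals, under which the median over all genes was 0.27, gave 3 members called higher and 9 lower. With the 2 groups alone in the fit 9 were called.

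**Figure D3:**
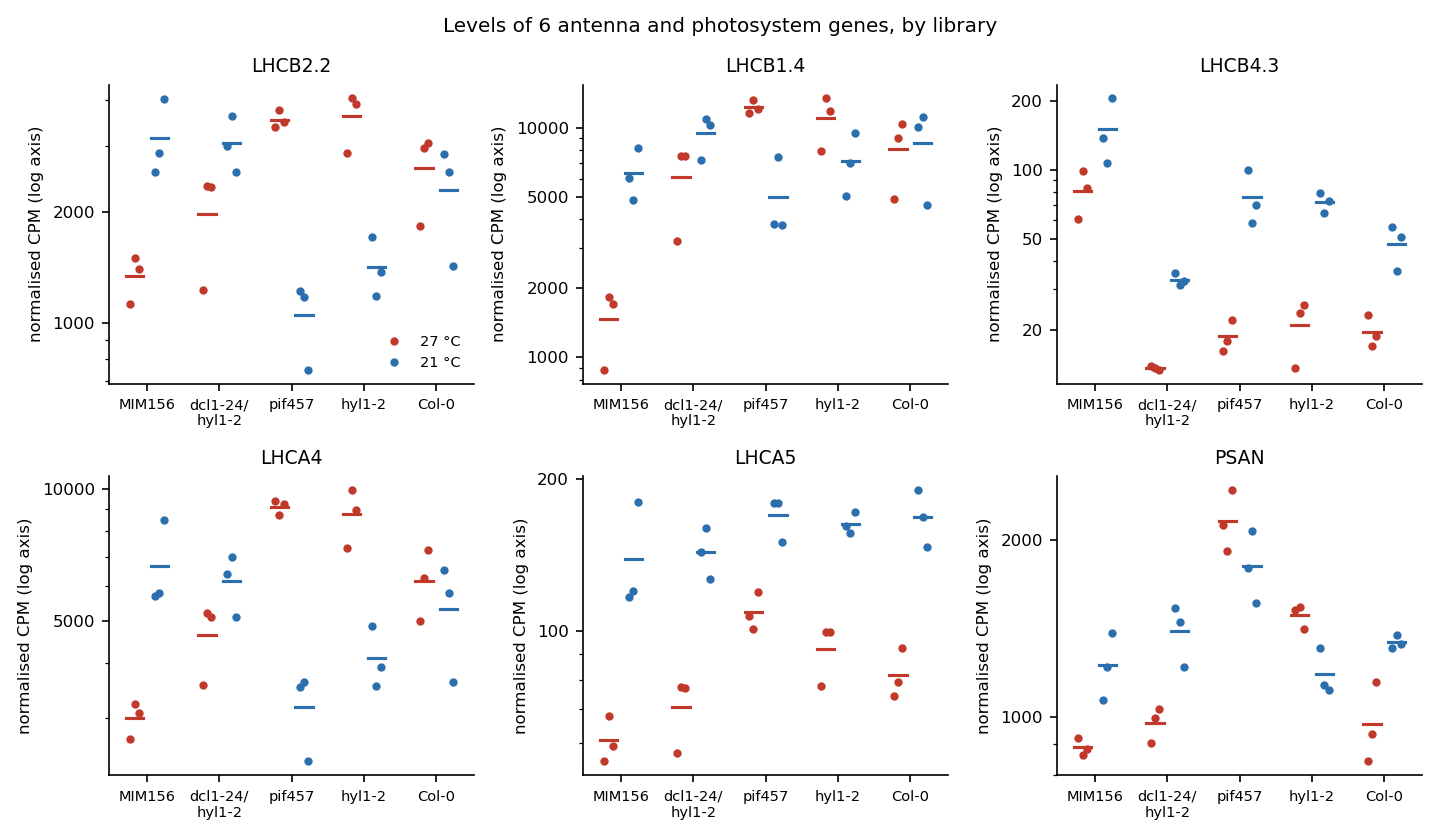
Normalised CPM (log axis) of 6 members in each library at 27 °C (red) and 21 °C (blue) in the 5 genotypes, with bars at the mean of 3 libraries. LHCB4.3 and LHCA5 are lower at 27 °C without overlap in every genotype, while LHCB2.2 and LHCA4 are higher in pif457 and hyl1-2 and lower in MIM156.

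LHCB4.3 and LHCA5 fell with warmth in all 5 genotypes, which was so for no other member. LHCB4.3 had 61.2, 99.0 and 83.1 normalised CPM in MIM156 at 27 °C, against 138, 107 and 206 at 21 °C (-0.86 ± 0.24, adjusted p = 0.0118). In dcl1-24/hyl1-2 it had 13.9, 13.6 and 13.3 at 27 °C, against 35.4, 31.4 and 32.5 at 21 °C (-1.25 ± 0.24, adjusted p = 0.000513). The libraries of dcl1-24/hyl1-2 were closest together, and those of MIM156 were the highest at either temperature. In pif457 LHCB4.3 had 16.2, 17.8 and 22.0 at 27 °C, against 99.9, 58.2 and 70.2 at 21 °C (-1.97 ± 0.24, adjusted p = 1.45e-06). In hyl1-2 it had 13.5, 23.7 and 25.6 at 27 °C, against 79.4, 64.5 and 73.1 at 21 °C (-1.81 ± 0.24, adjusted p = 3.54e-06). In Col-0 it had 23.1, 16.9 and 18.8 at 27 °C, against 55.9, 36.1 and 50.6 at 21 °C (-1.24 ± 0.24, adjusted p = 0.000368). No warm library reached a cool one of the same genotype. In MIM156 the call was lost with deposited totals (adjusted p = 0.0835), without replicate 3 at 21 °C (adjusted p = 0.11) and without replicate 1 at 27 °C (adjusted p = 0.0859), and in the other genotypes it held in every fit that left out 1 library.

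LHCA5 changed by -1.17 ± 0.15 in MIM156, -1.03 ± 0.15 in dcl1-24/hyl1-2 (adjusted p = 2.41e-05), -0.63 ± 0.15 in pif457 (adjusted p = 0.00399), -0.83 ± 0.15 in hyl1-2 (adjusted p = 0.000188) and -1.04 ± 0.15 in Col-0 (adjusted p = 1.15e-05). In Col-0 it had 74.2, 79.1 and 92.4 normalised CPM at 27 °C, against 191, 168 and 147 at 21 °C. These calls held in every fit that left out 1 library. LHCA6 fell in MIM156 (-1.02 ± 0.19, adjusted p = 0.000234), dcl1-24/hyl1-2 (-0.76 ± 0.19, adjusted p = 0.00517), hyl1-2 (-0.69 ± 0.19, adjusted p = 0.00606) and Col-0 (-0.84 ± 0.19, adjusted p = 0.00149), and had -0.22 ± 0.19 in pif457. PSBS, the sensor of energy-dependent quenching, fell in the same 4 genotypes, with -0.94 ± 0.15 in MIM156 (adjusted p = 3.42e-05), -0.67 ± 0.15 in dcl1-24/hyl1-2 (adjusted p = 0.00187), -0.41 ± 0.15 in hyl1-2 (adjusted p = 0.034) and -0.45 ± 0.15 in Col-0 (adjusted p = 0.03). With deposited totals the PSBS calls in hyl1-2 and Col-0 were lost (adjusted p = 0.369 and 0.243), and 4 of 6 fits that left out 1 library lost each of them.

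Ratios of members within a library do not depend on how libraries are scaled, and they are given as values with no test. The ratio of summed antenna to summed subunit reads was 2.64 to 2.78 in pif457 at 27 °C, against 1.51 to 1.89 at 21 °C. It was 2.81 to 3.20 in hyl1-2 at 27 °C, against 1.94 to 2.15 at 21 °C. In MIM156 it was 2.33 to 2.37 at 27 °C, against 2.65 to 2.94 at 21 °C, which was lower in the warm without overlap. These sums are weighted to the most abundant genes and do not rank single genes: in MIM156 the subunit gene PSBTN changed by more than the antenna gene LHCB5. The ranges overlapped in dcl1-24/hyl1-2 (2.16 to 2.51 at 27 °C and 2.34 to 2.52 at 21 °C) and in Col-0 (2.36 to 2.74 at 27 °C and 1.78 to 2.45 at 21 °C). This ratio was chosen after the values of the members were seen.

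Twin genes of 1 subunit shifted against each other with warmth in some genotypes, which differed between pairs. PSBO1 and PSBO2 both encode the protein that stabilises the manganese cluster. The dcl1-24/hyl1-2 line had 0.261 to 0.277 PSBO2 reads per PSBO1 read at 27 °C, against 0.302 to 0.343 at 21 °C. The ratio was 0.277 to 0.294 in pif457 at 27 °C, against 0.331 to 0.376 at 21 °C, and 0.189 to 0.251 in hyl1-2 at 27 °C, against 0.323 to 0.364 at 21 °C. In Col-0 it was 0.248 to 0.274 at 27 °C, against 0.301 to 0.349 at 21 °C, and in MIM156 the groups overlapped (0.263 to 0.282 at 27 °C, 0.270 to 0.332 at 21 °C). The ratio was thus lower in the warm, without overlap, in 4 of 5 genotypes. The same 4 genotypes had lower ratios of PSBQ1 to PSBQ2 and of PSAH1 to PSAH2 at 27 °C without overlap, and MIM156 overlapped in both.

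PSAD1 to PSAD2 was lower at 27 °C without overlap in pif457 (2.14 to 2.19 at 27 °C, 3.17 to 3.43 at 21 °C), hyl1-2 (2.04 to 2.34 at 27 °C, 2.96 to 3.59 at 21 °C) and Col-0 (2.31 to 2.54 at 27 °C, 2.94 to 3.32 at 21 °C). PSAE1 to PSAE2 was lower in MIM156 (1.76 to 2.27 at 27 °C, 2.52 to 2.66 at 21 °C) and dcl1-24/hyl1-2 (3.26 to 4.14 at 27 °C, 4.29 to 4.47 at 21 °C). The groups overlapped for PSAD1 to PSAD2 in MIM156 and dcl1-24/hyl1-2, and for PSAE1 to PSAE2 in pif457, hyl1-2 and Col-0. PSAE1 and PSAE2 encode another ferredoxin docking subunit. LHCB2.2 to LHCB2.3 was higher at 27 °C without overlap in all genotypes other than MIM156, for example 2.88 to 4.36 in Col-0 at 27 °C and 1.82 to 2.098 at 21 °C. Some of these genes overlap other genes, and the part of those reads was not tested.

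**Figure D4:**
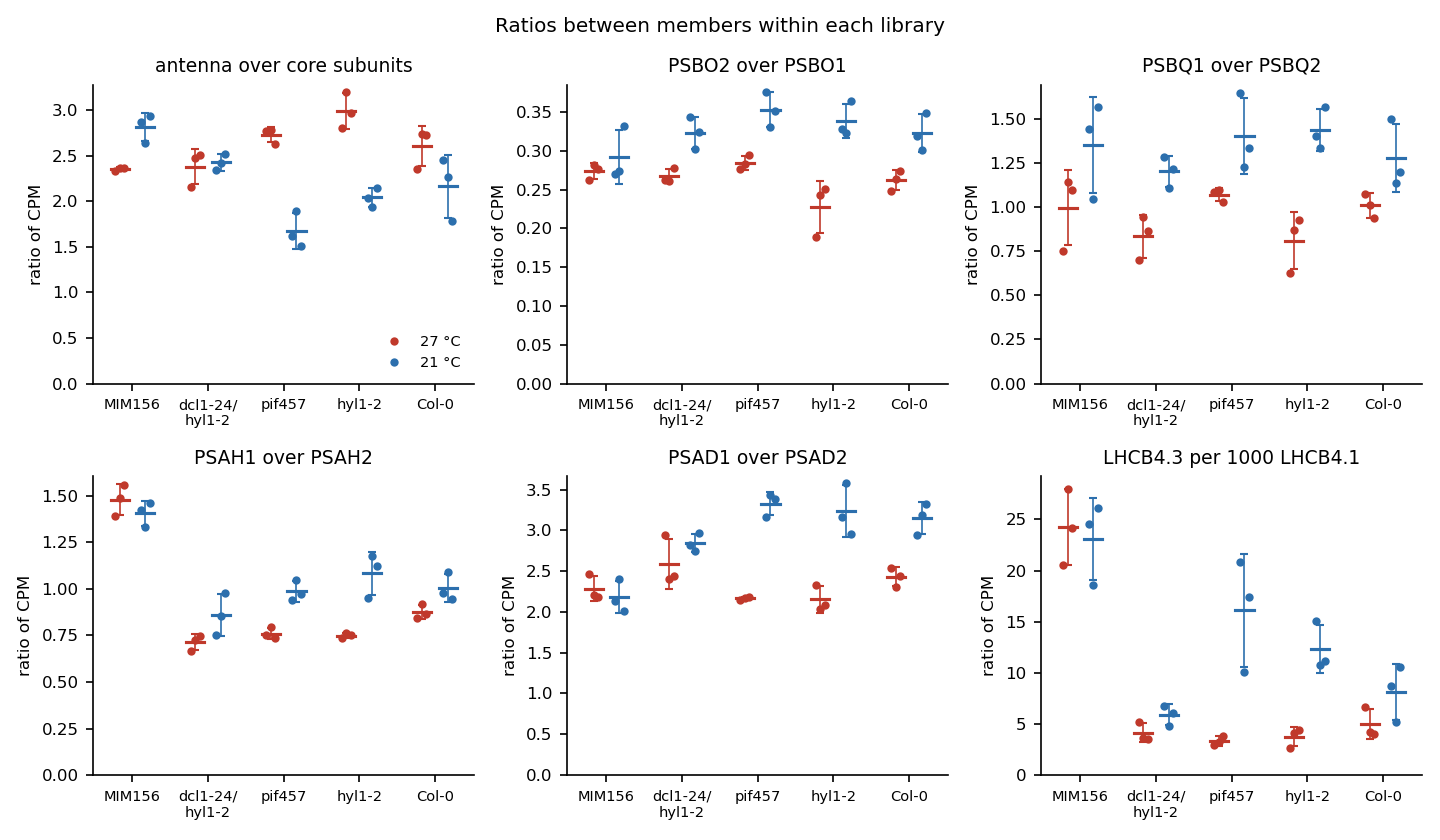
Ratios of CPM between members within each library (y axes, no unit) at 27 °C (red) and 21 °C (blue) in the 5 genotypes, each point 1 library, with bars at the mean and SD. The antenna to subunit ratio is higher at 27 °C in pif457 (2.64 to 2.78) and hyl1-2 (2.81 to 3.20), and PSAH1 to PSAH2 is highest in MIM156 (1.33 to 1.56).

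The difference between responses was tested directly, as the warmth change in a line minus that in Col-0. These 4 tests share the Col-0 libraries. For pif457, 7 members had a more positive response than in Col-0 and none a more negative one, where 0.565% of all genes were called positive and 0.799% negative. They were LHCB2.2 (1.56 ± 0.38, adjusted p = 0.0354), LHCB2.1 (1.52 ± 0.34, adjusted p = 0.0211), LHCB3 (1.28 ± 0.28, adjusted p = 0.0177), LHCB5 (0.86 ± 0.22, adjusted p = 0.0388), LHCA4 (1.29 ± 0.30, adjusted p = 0.0221), PSAF (1.04 ± 0.26, adjusted p = 0.039) and PSAN (0.73 ± 0.19, adjusted p = 0.044). The difference was positive for 42 of 43 members, with a median of 0.66, against -0.01 over all genes. The exception was LHCB4.3. Smallest in their classes were LHCB6 (0.66 ± 0.32), LHCA5 (0.40 ± 0.22), PSAO (0.42 ± 0.39) and PSBTN (0.16 ± 0.56), none called.

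None of these 7 calls held in every fit that left out 1 library. The count was 0 without replicate 1 of Col-0 at 27 °C, 0 without replicate 1 or replicate 2 of Col-0 at 21 °C, 2 without replicate 2 of Col-0 at 27 °C and 13 without replicate 3 of Col-0 at 21 °C. Without replicates 1 and 3 of pif457 at 21 °C it was 4 and 0, and without replicates 1, 2 and 3 of pif457 at 27 °C it was 2, 4 and 0. Without the 3 libraries that stood apart, 21 members were called, all positive. DESeq2 called 13 members and 519 of all genes, where limma called 297 of all genes.

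For hyl1-2, 5 members had a more positive response than in Col-0 and none a more negative one, where 2.63% of all genes were called positive and 4.13% negative. They were LHCB3, of the trimeric antenna (1.05 ± 0.28, adjusted p = 0.0257), LHCB5 (0.74 ± 0.22, adjusted p = 0.0371), PSAN (0.80 ± 0.19, adjusted p = 0.0115), PSBQ2 (0.70 ± 0.18, adjusted p = 0.0206) and PSBP1 (0.62 ± 0.18, adjusted p = 0.0358). The values behind PSAN were 1521, 1538 and 1413 normalised CPM in hyl1-2 at 27 °C, against 1310, 1136 and 1111 at 21 °C, and 842, 937 and 1147 in Col-0 at 27 °C, against 1311, 1380 and 1330 at 21 °C. So PSAN had higher levels in the warm in every hyl1-2 library and lower ones in every Col-0 library, and its call alone held in every fit that left out 1 library. The smallest differences were those of LHCB6 (0.26 ± 0.32), LHCA6 (0.15 ± 0.26), PSAL (0.07 ± 0.33) and PSBS (0.04 ± 0.21). The count was 1 without replicate 1 of Col-0 at 27 °C or replicate 2 of Col-0 at 21 °C, 2 without replicate 1 of Col-0 at 21 °C or replicate 2 of hyl1-2 at 21 °C, 3 without replicate 2 of Col-0 at 27 °C and 12 without replicate 3 of Col-0 at 21 °C. It was 3 without replicate 3 of hyl1-2 at 21 °C, and 2, 2 and 3 without replicates 1, 2 and 3 of hyl1-2 at 27 °C. It was 18 without the 3 libraries that stood apart.

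For MIM156, 5 members had a more negative response than in Col-0 and none a more positive one, where 0.794% of all genes were called negative and 0.79% positive. LHCB1.2 (AT1G29910), of the major antenna, differed by -1.96 ± 0.40 (adjusted p = 0.0112). It had 1579, 2521 and 2519 normalised CPM in MIM156 at 27 °C, against 6906, 5350 and 9383 at 21 °C, and 5221, 6740 and 7449 in Col-0 at 27 °C, against 7798, 5932 and 3291 at 21 °C. The MIM156 groups lay apart and the Col-0 groups overlapped. The others were LHCB3 (-1.37 ± 0.28, adjusted p = 0.00857), LHCA4 (-1.37 ± 0.30, adjusted p = 0.0143), LHCA1 (-1.30 ± 0.33, adjusted p = 0.0424) and PSAH2 (-0.82 ± 0.20, adjusted p = 0.0272). Over the members the median was -0.81, against -0.00 over all genes, and 2 of 43 were positive. The smallest in their classes were LHCB4.1 (-0.35 ± 0.24), LHCA5 (-0.13 ± 0.22), PSAN (0.01 ± 0.19) and PSBY (-0.10 ± 0.24). Without the 3 libraries that stood apart no member was called, with adjusted p of 0.0919 for LHCB1.2, 0.0744 for LHCB3, 0.103 for LHCA4, 0.233 for LHCA1 and 0.12 for PSAH2. The count was 2 without replicate 3 and 3 without replicate 2 of Col-0 at 27 °C, and 3 without replicate 3 of Col-0 at 21 °C. It was 9 without replicate 1 of Col-0 at 27 °C, and 11 without replicate 1 of Col-0 or replicate 2 of MIM156 at 21 °C. It was 2 without replicate 3 of MIM156 at 21 °C and 3 without replicate 1 of MIM156 at 27 °C, and the calls of LHCB1.2 and LHCB3 held in every fit that left out 1 library.

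For dcl1-24/hyl1-2 no member was called against Col-0, in a comparison in which 0% of all genes were called in either direction by limma, edgeR or DESeq2. At an unadjusted p under 0.05 there were 4 members and 964 of all genes. The smallest differences were LHCB4.3 (-0.01 ± 0.33), LHCA5 (0.01 ± 0.22), PSAN (-0.04 ± 0.19) and PSBQ2 (-0.02 ± 0.18), and the median over the members was -0.39.

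Set against Col-0 within 1 temperature, MIM156 stood out at 27 °C. There 35 members were lower and 1 higher, where 14.6% of all genes were called lower and 12.8% higher. The median difference was -0.93, against -0.01 over all genes. LHCB1.4 had 881, 1825 and 1698 normalised CPM in MIM156, against 4909, 9027 and 10334 in Col-0, a difference of -2.46 ± 0.40 (adjusted p = 5.96e-05). LHCA1 differed by -1.11 ± 0.24 (adjusted p = 0.000788), PSAO by -1.44 ± 0.28 (adjusted p = 0.000314) and PSBTN by -1.56 ± 0.39 (adjusted p = 0.00492). Only LHCB4.3 was higher, with 61.2, 99.0 and 83.1 normalised CPM in MIM156, against 23.1, 16.9 and 18.8 in Col-0 (2.00 ± 0.24, adjusted p = 4.15e-07). Markers of other tissues also differed there. Of 9 seed genes tested, 6 were higher in MIM156 at 27 °C, PAP85 by 3.82 ± 0.40 (adjusted p = 2.81e-08), and the seed gene sum was 12.4 to 182 normalised CPM in MIM156, against 12.2 to 19.7 in Col-0. Of 16 root genes PYK10 alone was called (-1.59 ± 0.15, adjusted p = 7.08e-09). The root gene sum with PYK10 was 1284 to 1509 normalised CPM in MIM156, against 3849 to 4085 in Col-0, and without PYK10 it was 87.3 to 108, against 102.0 to 172. Their part in the difference of the members was not tested.

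PSAH2 was lower in MIM156 at 27 °C by more than its twin. It had 278, 317 and 309 normalised CPM, against 650, 802 and 859 in Col-0 (-1.35 ± 0.14, adjusted p = 2e-08), and PSAH1 had 387, 472 and 481, against 547, 737 and 743 (-0.59 ± 0.16, adjusted p = 0.00617). The ratio of PSAH1 to PSAH2 was 1.33 to 1.56 over the 6 MIM156 libraries and 0.664 to 1.17 over all others. PSBQ2 differed by -1.12 ± 0.13 (adjusted p = 1.05e-07) and PSBQ1 by -1.16 ± 0.17 (adjusted p = 6.39e-06). PSAD1 differed by -1.11 ± 0.16 (adjusted p = 3.19e-06) and PSAD2 by -1.03 ± 0.20 (adjusted p = 0.000331), while PSAE1 differed by -1.36 ± 0.17 (adjusted p = 3.31e-07) and PSAE2 by -0.56 ± 0.14 (adjusted p = 0.00335). PSAN did not pass the test (-0.12 ± 0.13, adjusted p = 0.54).

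At 21 °C, 8 members were lower and 2 higher in MIM156 than in Col-0, where 15.2% of all genes were called lower and 13.2% higher. The share of members called lower was thus near that of all genes, and the share called higher was under it. LHCB4.3 had 138, 107 and 206 normalised CPM in MIM156, against 55.9, 36.1 and 50.6 in Col-0, and was higher by 1.62 ± 0.24 (adjusted p = 1.01e-05). LHCB4.3 per 1000 reads of LHCB4.1, the main CP29 gene, came to 18.6 to 26.1 in MIM156 at 21 °C, against 5.18 to 10.6 in Col-0, and to 20.6 to 27.98 in MIM156 at 27 °C, against 4.05 to 6.68 in Col-0. PSAD1 differed by -0.69 ± 0.16 (adjusted p = 0.00121), with 1380, 1520 and 1595 normalised CPM in MIM156, against 2696, 2561 and 2042 in Col-0. PSBQ2 differed by -0.67 ± 0.13 (adjusted p = 0.000192). No LHCA gene was called, and of the LHCB genes only LHCB4.3 and LHCB2.1 (0.63 ± 0.24, adjusted p = 0.0498) were. The LHCB2.1 call was lost without replicate 3 of Col-0 (adjusted p = 0.289), and without the 3 libraries that stood apart 17 members were called.

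**Figure D5:**
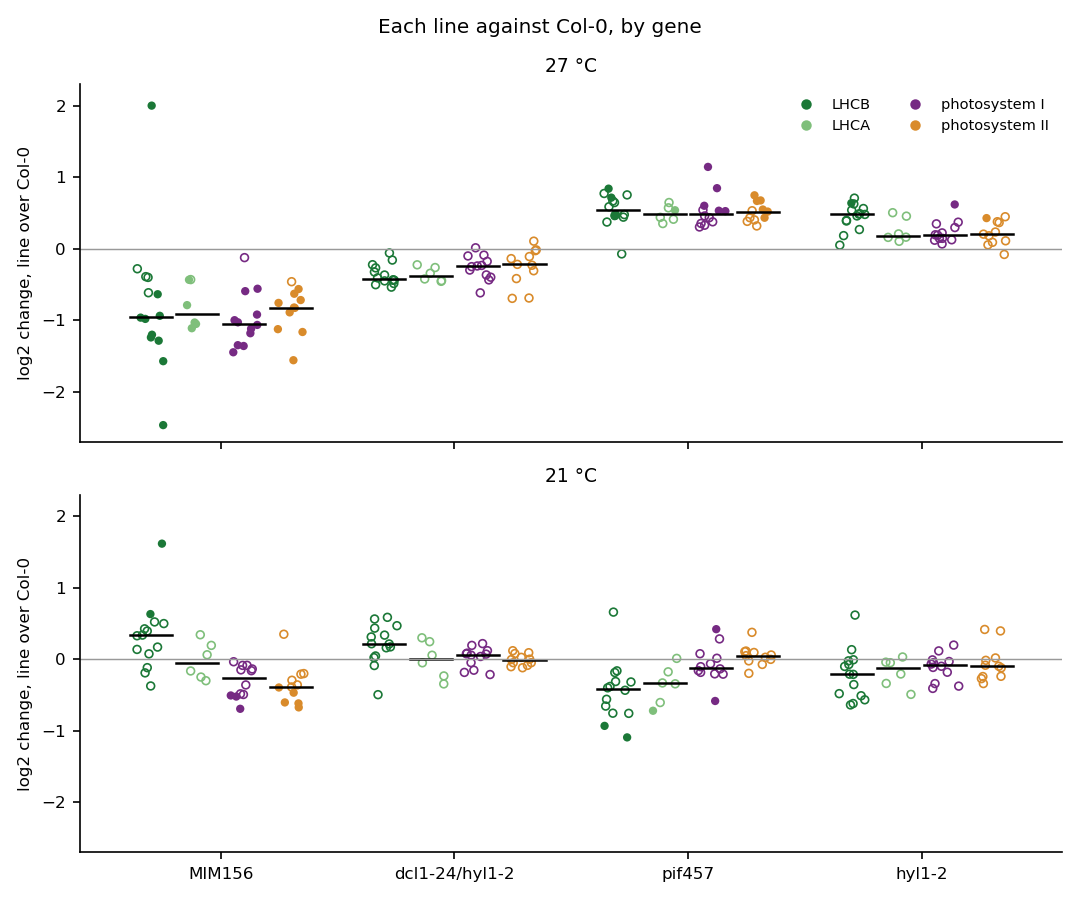
Log2 difference of each member, line minus Col-0 (y axis), for the 4 lines at 27 °C and at 21 °C, by role, with called members filled, others open and a black line at the median of each role. In MIM156 at 27 °C 42 of 43 points lie under 0 and LHCB4.3 alone is at 2.00, and in pif457 at 27 °C 42 of 43 lie above 0.

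In pif457 at 27 °C, 16 members were higher than in Col-0 and none lower, where 7.76% of all genes were called higher and 8.52% lower. They were 4 LHCB, 1 LHCA, 5 photosystem I and 6 photosystem II genes, and the median difference of the members was 0.52, against -0.00 over all genes. PSAN (AT5G64040) had 2115, 1915 and 2433 normalised CPM in pif457, against 842, 937 and 1147 in Col-0, and was higher by 1.15 ± 0.13 (adjusted p = 6.58e-07). PSBW was higher by 0.75 ± 0.16 (adjusted p = 0.00172), LHCB1.2 by 0.84 ± 0.29 (adjusted p = 0.0441) and LHCA3 by 0.54 ± 0.17 (adjusted p = 0.0271). The LHCB1.2 call was lost in 6 of 6 fits that left out 1 library (adjusted p = 0.0503 to 0.179) and the LHCA3 call in 5 of 6 (0.0211 to 0.156 over the 6). The count was 5 without replicate 1 and 10 without replicate 2 of Col-0, and 10, 10 and 8 without replicates 1, 2 and 3 of pif457. With these groups alone in the fit it was 31.

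At 21 °C, 4 members were lower and 1 higher in pif457, where 6.12% of all genes were called lower and 4.27% higher. LHCB2.2 had 1221, 1180 and 749 normalised CPM in pif457, against 2866, 2556 and 1426 in Col-0, a difference of -1.09 ± 0.27 (adjusted p = 0.0105). LHCB2.1 differed by -0.93 ± 0.24 (adjusted p = 0.0135), LHCA4 by -0.72 ± 0.21 (adjusted p = 0.0272) and PSAF by -0.58 ± 0.19 (adjusted p = 0.043). PSAN was higher by 0.42 ± 0.13 (adjusted p = 0.0391), with 1793, 2068 and 1560 in pif457, against 1311, 1380 and 1330 in Col-0. None of the 5 calls held in every fit that left out 1 library. The count was 0 without replicate 1 or replicate 2 and 8 without replicate 3 of Col-0, 3 without replicate 1 and 1 without replicate 3 of pif457, and 13 without the 3 libraries that stood apart.

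In hyl1-2 at 27 °C, 3 members were higher than in Col-0, where 1.65% of all genes were called higher and 2.66% lower. LHCB5 (AT4G10340) had 8609, 9029 and 8875 normalised CPM in hyl1-2, against 4866, 5656 and 6600 in Col-0 (0.64 ± 0.15, adjusted p = 0.0104). PSAN was higher by 0.62 ± 0.13 (adjusted p = 0.00353) and PSBQ2 by 0.43 ± 0.13 (adjusted p = 0.049). The PSBQ2 call was lost in 6 of 6 fits that left out 1 library (adjusted p = 0.0547 to 0.264). Without replicate 1 of Col-0, PSAN alone was called, and without the 3 libraries that stood apart, which are all at 21 °C and enter only through the shared spread, 7 members were. At 21 °C no member was called in hyl1-2, where 11.5% of all genes were called higher and 10.2% lower. At an unadjusted p under 0.05 there were 8 members and 7695 of all genes. The members called were 0 by edgeR, with 4265 of all genes, and 2 by DESeq2, with 4751. Each of these shares of members was under that of all genes. Without replicate 3 of Col-0, 9 members were called, and without the 3 libraries that stood apart 11, all lower.

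In dcl1-24/hyl1-2 no member was called against Col-0 at either temperature, by limma, edgeR or DESeq2. At 27 °C 1.44% of all genes were called lower and 0.579% higher. There 6 members and 2945 of all genes had an unadjusted p under 0.05. At 21 °C the shares were 0.771% and 0.354%, and 1 member and 2663 of all genes had an unadjusted p under 0.05. The median difference of the members was -0.30 at 27 °C and 0.06 at 21 °C.

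Between dcl1-24/hyl1-2 and hyl1-2, the members differed in opposite directions at the 2 temperatures. At 27 °C 16 were lower in dcl1-24/hyl1-2 and none higher, where 3.38% of all genes were called lower and 2.81% higher. LHCB1.3 had 10356, 14558 and 14841 normalised CPM in dcl1-24/hyl1-2, against 21539, 30262 and 27144 in hyl1-2 (-0.99 ± 0.25, adjusted p = 0.0168). LHCA4 differed by -0.93 ± 0.21 (adjusted p = 0.00667), PSAN by -0.61 ± 0.13 (adjusted p = 0.00479) and PSBR by -0.87 ± 0.23 (adjusted p = 0.0186). The count was 3 without replicate 1 of dcl1-24/hyl1-2, and 5 and 8 without replicates 2 and 3 of hyl1-2.

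At 21 °C 10 members were higher and 1 lower in dcl1-24/hyl1-2 than in hyl1-2, where 13.9% of all genes were called higher and 15.8% lower. LHCB1.1 had 8912, 6828 and 5800 normalised CPM in dcl1-24/hyl1-2, against 4536, 2126 and 2983 in hyl1-2 (1.21 ± 0.35, adjusted p = 0.0126). LHCA1 was higher by 0.79 ± 0.24 (adjusted p = 0.0133), PSAD2 by 0.59 ± 0.20 (adjusted p = 0.0277) and PSBP1, of the oxygen-evolving complex, by 0.33 ± 0.13 (adjusted p = 0.0482). LHCB4.3 was the lower one, with 35.4, 31.4 and 32.5 in dcl1-24/hyl1-2, against 79.4, 64.5 and 73.1 in hyl1-2 (-1.11 ± 0.24, adjusted p = 0.00114). The count was 7, 4 and 7 without replicates 1, 2 and 3 of hyl1-2, and 5 without replicate 1 or replicate 2 of dcl1-24/hyl1-2. With deposited totals, under which the median over all genes was 0.17, 23 members were higher and 1 lower. Root gene sums without PYK10 were 48.4 to 410 normalised CPM in dcl1-24/hyl1-2, against 421 to 510 in hyl1-2, and their part was not tested.

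Genes next to the members in the photosynthetic apparatus were read in the same fit. Over all genes tested, 9.75% were called lower with warmth in MIM156, 7.9% in dcl1-24/hyl1-2, 9.13% in pif457, 17.1% in hyl1-2 and 9.68% in Col-0. The shares called higher were 8.57% in MIM156, 6.49% in dcl1-24/hyl1-2, 8.27% in pif457, 14.3% in hyl1-2 and 8.54% in Col-0. Of 14 genes of electron transport between and after the photosystems, 10 fell and 1 rose with warmth in MIM156, 10 and 1 in dcl1-24/hyl1-2, 5 and 1 in pif457, 7 and 1 in hyl1-2 and 10 and 1 in Col-0. The gene that rose was in each case PGRL1B, of cyclic electron flow, by 0.91 ± 0.12 in MIM156 (adjusted p = 2.35e-06) and 0.80 ± 0.12 in Col-0 (adjusted p = 8.25e-06). FD2, the main leaf ferredoxin, fell by 1.16 ± 0.13 in Col-0 (adjusted p = 2.82e-07). Of 23 genes of antenna assembly and regulation, 21 fell in MIM156, 20 in dcl1-24/hyl1-2, 11 in pif457, 13 in hyl1-2 and 18 in Col-0. ELIP2, an early light-induced protein, fell most in 4 genotypes, with -2.16 ± 0.37 in dcl1-24/hyl1-2 (adjusted p = 0.000154), -2.33 ± 0.37 in pif457 (adjusted p = 5.12e-05), -2.41 ± 0.37 in hyl1-2 (adjusted p = 2.38e-05) and -1.76 ± 0.37 in Col-0 (adjusted p = 0.001). In MIM156 its relative ELIP1 fell most (-2.003 ± 0.389, adjusted p = 0.000527). ZEP, of the xanthophyll cycle, was the only 1 of the 23 to rise in any genotype, in pif457 (0.68 ± 0.17, adjusted p = 0.00447).

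Of 15 chlorophyll synthesis genes, 13 fell with warmth in MIM156, 12 in dcl1-24/hyl1-2, 6 in pif457, 2 in hyl1-2 and 14 in Col-0, while 1 rose in pif457 and 3 in hyl1-2. In hyl1-2, where 17.1% of all genes were called lower and 14.3% higher, these counts of 2 and 3 of 15 were near the background. PORA, which reduces protochlorophyllide in the light, changed by -1.85 ± 0.27 in MIM156 (adjusted p = 1.46e-05), by -1.30 ± 0.27 in dcl1-24/hyl1-2 (adjusted p = 0.00108) and by -1.23 ± 0.27 in Col-0 (adjusted p = 0.00138), and rose by 0.98 ± 0.27 in hyl1-2 (adjusted p = 0.00698). CAO, which makes the chlorophyll b bound by the antenna, rose by 0.60 ± 0.14 in pif457 (adjusted p = 0.00366). Against Col-0 at 27 °C, PORA was higher in MIM156 by 3.73 ± 0.27 (adjusted p = 1.82e-11) and PORB differed by -1.41 ± 0.14 (adjusted p = 1.71e-08).

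The median response of these neighbouring lists in MIM156 was close to that in Col-0. The response in MIM156 minus that in Col-0 had a median of 0.12 over the electron transport genes, 0.07 over assembly and regulation and 0.02 over chlorophyll synthesis, against -0.81 over the members and -0.00 over all genes. None of the 14 and none of the 23 genes passed the test of that difference, and 1 of the 15 was more negative. Over all genes 0.794% were called negative and 0.79% positive, so such low counts in short lists do not set them apart from all genes.

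Of 18 regulators tested, GLK1, an activator of antenna genes, was the lowest against Col-0 in MIM156. It had 24.9, 32.2 and 32.2 normalised CPM in MIM156 at 27 °C, against 127, 138 and 107 in Col-0 (-2.04 ± 0.19, adjusted p = 6.28e-09). At 21 °C it had 63.2, 65.1 and 80.7 in MIM156, against 133, 181 and 99.5 in Col-0 (-0.95 ± 0.19, adjusted p = 0.000491). No MIM156 library reached a Col-0 library at either temperature, and within MIM156 the warmth change of GLK1 was -1.21 ± 0.19 (adjusted p = 5.36e-05). The response of GLK1 in MIM156 differed from that in Col-0 by -1.09 ± 0.27 (adjusted p = 0.0371), a call lost without the 3 libraries that stood apart (adjusted p = 0.243). At 27 °C 6 of the 18 were higher and 6 lower in MIM156 than in Col-0, where 12.8% of all genes were called higher and 14.6% lower. GLK2, the relative of GLK1, had 87.2, 147 and 145 normalised CPM in MIM156 at 27 °C, against 150.4, 154 and 147 in Col-0 (-0.29 ± 0.21, adjusted p = 0.314, not called). HY5 had 10.4, 12.5 and 13.5 in MIM156 at 27 °C, against 5.51, 4.53 and 5.43 in Col-0, and was higher by 1.15 ± 0.19 (adjusted p = 2.77e-05). The clock gene LHY had 155, 156 and 144 in MIM156 at 27 °C, against 39.5, 48.8 and 54.2 in Col-0. Lower in MIM156 at 27 °C were PIF4 (-1.52 ± 0.24, adjusted p = 3.64e-05), PIF5 (-0.54 ± 0.20, adjusted p = 0.047) and PIF7 (-1.09 ± 0.25, adjusted p = 0.0015). In pif457, GLK1 had 86.7, 85.3 and 78.2 at 27 °C, against 81.9, 102 and 70.2 at 21 °C, with overlap. In hyl1-2 GLK1 was higher without overlap, with 162 to 175 at 27 °C and 91.8 to 146 at 21 °C. GLK2 in pif457 had 202 to 256 at 27 °C and 117 to 164 at 21 °C. In hyl1-2 GLK2 had 135 to 157 at 27 °C and 75.1 to 107 at 21 °C, so it was higher in both lines without overlap. In dcl1-24/hyl1-2 GLK2 was lower without overlap (94.4 to 118 at 27 °C, 142 to 162 at 21 °C), and in MIM156 and Col-0 its groups overlapped. CGA1, a GATA factor of chloroplast development, was the lowest regulator in hyl1-2 at 21 °C, with 0.395, 1.13 and 1.52 normalised CPM in hyl1-2, against 11.4, 10.3 and 12.9 in Col-0 (-3.07 ± 0.21, adjusted p = 2.15e-11). There 12 of 18 regulators were lower and none higher, where 10.2% of all genes were called lower and 11.5% higher, and no member was called. What these regulators did to the members was not tested.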

How the data were processed

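Poly(A) RNA of whole seedlings was sequenced as paired-end reads. The authors aligned reads with STAR 2.7.7a, counted uniquely mapped reads per Araport11 gene with featureCounts 2.0.1 and used DESeq2 1.35.0, per the submitters' processing notes and the methods. The deposited table is named for FPKM, but its values are CPM: each of the 30 libraries summed to 999904 to 999960, and 100% of the values were whole multiples of the value of 1 read, at a tolerance of 0.001 read. Whole reads recovered in this way gave 18.4 M to 27.1 M counts per library. Columns were matched to samples by title, and 0 columns had no sample.

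CPM was divided by a median-of-ratios factor from 21062 genes (0.810 to 1.28) to give normalised CPM. The filter on low values asked for 1 CPM or more in 3 or more libraries, which 21780 of 25300 genes passed. limma 3.58.1 in R 4.3.3, with its trend and robust options, was fitted to log2(normalised CPM + 0.5) of all 30 libraries with 1 mean per group, so that fold changes of low genes are understated. P-values were adjusted by Benjamini-Hochberg over all genes tested. The study's methods use a count model on raw counts; because the deposited values were CPM, edgeR 4.0.16 and DESeq2 1.42.0 on the recovered reads served as alternatives. Other alternatives were the scaling (deposited totals; nuclear totals without the 50 highest genes), the pseudocount, the filter, the groups in the fit, a replicate block, and leaving out libraries.

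Replicate numbers come from the sample titles, and the authors report 3 biological replicates for the RNA sequencing. Nothing in the sources used here says that a number marks a shared day or that replicates are separate cultures. The p-values thus measure the spread between these samples. Same-numbered samples deviated together, with every correlation over 0.1, in 7 of the 19 comparisons: warmth in Col-0 (0.14 to 0.168), hyl1-2 (0.171 to 0.203) and dcl1-24/hyl1-2 (0.105 to 0.19) against Col-0 at 27 °C, pif457 (0.297 to 0.549) and dcl1-24/hyl1-2 (0.425 to 0.56) against Col-0 at 21 °C, and dcl1-24/hyl1-2 against hyl1-2 at 27 °C (0.243 to 0.445) and at 21 °C (0.208 to 0.474).

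The members, the other gene lists and the libraries that stood apart were chosen with earlier results of these data known. Members named in a warmth or interaction comparison are, in each role, the called ones with the largest changes and the one with the smallest; in comparisons of lines, the called ones with the largest changes. LHCB2.1 to LHCB2.3, LHCB4.3, LHCA5, LHCA6, PSAO, PSBS and the twin genes were always followed, and members whose library values are printed beyond these, and the antenna ratio, were chosen after their values were seen. Of 19 regulators listed, 18 were in the table. Sequences, gene models and identities are from RefSeq on TAIR10.1, to which all 43 members matched.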

Additional observations from a re-analysis of the deposited data

Results flagged for a closer look

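The response to warmth of 17 member and line pairs differed from that of the same member in Col-0 in the limma test of the difference itself. In pif457 the difference in log2 change was 1.52 for LHCB2.1, 1.56 for LHCB2.2, 1.28 for LHCB3, 0.857 for LHCB5, 1.29 for LHCA4, 1.04 for PSAF and 0.726 for PSAN. In hyl1-2 it was 1.05 for LHCB3, 0.741 for LHCB5, 0.803 for PSAN, 0.618 for PSBP1 and 0.701 for PSBQ2. In MIM156 it was -1.96 for LHCB1.2, -1.37 for LHCB3, -1.3 for LHCA1, -1.37 for LHCA4 and -0.825 for PSAH2. LHCB3 was thus the 1 member that differed in all 3 lines, with positive values in pif457 and hyl1-2 and a negative one in MIM156, and these comparisons share the Col-0 libraries. The LHCB3 call was lost in 5 of 12 fits that left out 1 library in pif457 and in 5 of 12 in hyl1-2, and in MIM156 it held in all 12 but was lost without the 3 libraries that stood apart (adjusted p = 0.0744). LHCB3 had 5274, 4620 and 2904 normalised CPM in Col-0 at 21 °C, and replicate 3 was the lowest there. Groups of 3 libraries are too small for a test of single outlying samples.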

How the results depend on the processing

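Changing 1 choice at a time moved the number of members called by over 1.5 times as follows, with all other counts within that factor. With deposited totals the count was 17 for warmth in dcl1-24/hyl1-2, 10 for the hyl1-2 and 15 for the MIM156 difference in response, 7 for hyl1-2 against Col-0 at 27 °C and 8 at 21 °C, and 24 for dcl1-24/hyl1-2 against hyl1-2 at 21 °C. With nuclear totals these were 11 for warmth in Col-0, 11 and 15 for the hyl1-2 and MIM156 differences in response, and 6 and 1 for hyl1-2 against Col-0 at 27 °C and 21 °C. With only the compared groups in the fit they were 15 for warmth in dcl1-24/hyl1-2 and 9 in Col-0, 1 and 0 for the pif457 and MIM156 differences in response, 31 and 2 for pif457 and dcl1-24/hyl1-2 against Col-0 at 27 °C, and 0, 1 and 3 for pif457, hyl1-2 and MIM156 against Col-0 at 21 °C. DESeq2 called 13, 8 and 15 in the pif457, hyl1-2 and MIM156 differences in response, 5 for hyl1-2 against Col-0 at 27 °C, and 8 and 2 for pif457 and hyl1-2 against Col-0 at 21 °C. In those differences in response, in the same order, DESeq2 called 519, 1750 and 574 of all genes, against 297, 1472 and 345 by limma. Without limma's trend and robust options the pif457 difference in response had 3 calls. Without the 3 libraries that stood apart the counts were 21, 18 and 0 for the pif457, hyl1-2 and MIM156 differences in response, 7 and 1 for hyl1-2 and dcl1-24/hyl1-2 against Col-0 at 27 °C, and 13, 11 and 17 for pif457, hyl1-2 and MIM156 against Col-0 at 21 °C. For the other choices the counts over all genes are not given here, so those member counts do not set the members apart from all genes. The cause of these shifts was not tested.

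With the replicate block the counts were 12, 8 and 11 for the pif457, hyl1-2 and MIM156 differences in response and 1 for hyl1-2 against Col-0 at 21 °C. In these comparisons the correlations of same-numbered samples were mixed, and not every one was over 0.1. They spanned -0.0826 to 0.549, 0.0067 to 0.341 and -0.227 to 0.304 for the pif457, hyl1-2 and MIM156 differences in response. For hyl1-2 against Col-0 at 21 °C they spanned 0.0708 to 0.309. Where every correlation was over 0.1, the block moved no count by over 1.5 times.

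Leaving out 1 library gave 8 to 18 calls for warmth in Col-0, 12 to 28 in dcl1-24/hyl1-2, 36 to 43 in MIM156, 11 to 17 in pif457 and 13 to 16 in hyl1-2. It gave 0 to 13, 1 to 12 and 2 to 11 for the pif457, hyl1-2 and MIM156 differences in response. Against Col-0 at 27 °C it gave 5 to 16 for pif457, 1 to 2 for hyl1-2 and 29 to 38 for MIM156. Against Col-0 at 21 °C it gave 0 to 8 for pif457, 0 to 9 for hyl1-2 and 7 to 14 for MIM156. For dcl1-24/hyl1-2 against hyl1-2 it gave 3 to 15 at 27 °C and 4 to 11 at 21 °C.

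Among single members, PSAE2 and PSBO1 changed sign for warmth in hyl1-2 with deposited totals, to 0.28 (adjusted p = 0.0385) and 0.29 (adjusted p = 0.0271), and their main values were at 0. The depth of these libraries limits no member, since all passed the filter, but 3 libraries a group limit the precision.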
